A study of Mus musculus with 12 samples.

Results

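The genes described here encode 9 secreted glycoproteins of the extracellular matrix: fibulin 2 (Fbln2), fibulin 5 (Fbln5), fibrillin 1 (Fbn1), Svep1, thrombospondin 1 (Thbs1), tenascin C (Tnc), Sparc, Smoc2 and Tgfbi. They were chosen by symbol from the 336 genes that the authors listed for high-fat diet (HFD) against chow, and all 9 were found among those rows. Liver RNA came from PXR-deficient C57BL/6N mice, 3 in each of 4 groups. The pregnane X receptor (PXR) is a nuclear receptor that switches on drug metabolism genes when it binds foreign compounds. The HFD mice ate a high-fat diet for 18 weeks from 6 weeks of age and have no treatment in the labels. The chow mice ate regular chow over the same time. Of the remaining HFD-fed animals, 3 were given the rodent PXR ligand PCN at 50 mg/kg by daily injection into the abdomen for 4 days, and 3 were given vehicle with 30% DMSO in corn oil in the same way. All mice are PXR deficient, so no comparison with PXR-intact mice is made, and the labels give neither sex nor how the deficiency was made.

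Elastic fibres are built on a scaffold of microfibrils, whose main component is fibrillin 1, and fibulin 5 helps to place elastin on that scaffold. Matricellular proteins such as thrombospondin 1, tenascin C and Sparc add little to the strength of the matrix. They bind cells, collagens and growth factors, and are known for appearing in tissue that is being repaired or remodelled. In the liver, stellate cells and portal fibroblasts are known as main sources of matrix, and thrombospondin 1 is known for its ability to activate latent TGF-beta.

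The rows of the deposited table were selected by the authors' test, so the diet values of these genes are given as a description and not as a finding. In either direction, the smallest deposited log2 fold change of a row is 0.6 in size, and no row has an adjusted p above 0.0474 in the authors' deposited table. Genes outside these limits are not among the rows held. Of about 24990 genes that the authors tested, 0.860% were listed as higher on HFD, which is 215 genes, and all 9 glycoprotein genes are among these. Their median fold, the ratio of group means of normalized counts, was 2.25, beside 2.30 for all genes listed as higher. The set sits near the middle of the listed genes and not at their upper end. Counts summed over the listed genes were 625048 to 920106 per mouse in the HFD group and 547431 to 670379 in the chow group. The full depth of the libraries is unknown. In whole liver, more matrix-producing cells and more RNA per cell cannot be told apart.

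Promoter sequences are shown for the 3 genes whose RefSeq window lies wholly or mostly outside their own annotated exons, because genes that were listed together can be compared for what lies upstream of them. RefSeq (GRCm38.p6) held a promoter for 7 of the 9 genes; Thbs1 and Smoc2 were not matched. The lines below give up to 250 bases upstream of the start site, 5' to 3' on the gene's strand, with capitals marking GGGCGG, or its reverse complement, and TATAAA. The Fbln5 window is chr12:101819120-101819369 on the minus strand, the Tnc window chr4:64047016-64047265 on the minus strand, and the Tgfbi stretch, 187 bases that end where its annotated exon begins, chr13:56609336-56609522 on the plus strand.
Fbln5: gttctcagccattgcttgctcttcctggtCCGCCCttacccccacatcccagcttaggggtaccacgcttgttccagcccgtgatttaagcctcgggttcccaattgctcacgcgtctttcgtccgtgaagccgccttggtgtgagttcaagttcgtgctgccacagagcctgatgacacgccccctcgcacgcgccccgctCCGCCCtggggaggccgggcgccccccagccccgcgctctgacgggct
Tnc: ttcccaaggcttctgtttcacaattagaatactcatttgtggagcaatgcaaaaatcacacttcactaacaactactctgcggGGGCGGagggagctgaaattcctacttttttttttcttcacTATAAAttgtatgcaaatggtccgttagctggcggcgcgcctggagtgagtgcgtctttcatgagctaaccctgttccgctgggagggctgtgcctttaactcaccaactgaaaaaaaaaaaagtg
Tgfbi: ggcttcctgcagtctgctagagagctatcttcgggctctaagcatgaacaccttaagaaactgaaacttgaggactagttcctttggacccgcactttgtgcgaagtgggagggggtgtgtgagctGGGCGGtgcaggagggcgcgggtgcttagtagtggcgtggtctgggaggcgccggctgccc
GGGCGG, the core of the site bound by Sp factors, was present in 5 of the 7 windows, and in 32.9% of 27025 mouse promoters cut to the same length. TATAAA, the TATA box, was present in 2 of 7 (13.0% of all promoters). In Tnc it starts at -126, counted from the base before the start site as -1. CAGACA, which holds a SMAD-binding core, was present in 2 of 7 (17.1% of all promoters), and GGAATG, the TEAD site, in 1 of 7 (12.6% of all). TGANTCA, the AP-1 site, was found in 0 of 7 windows and in 6.87% of all promoters. Both strands were searched, and none of these letter strings holds another. GC content of the 7 windows ran from 44.8% for Tnc to 65.2% for Fbln5, beside a median of 52.0% for all promoters. In GENCODE M21, the windows of Fbln2, Fbn1 and Svep1 lie wholly in exons of the same gene, and 238 of the 250 bases of the Sparc window do, so for these the search may not cover the promoter in use. These matches are letters in a window and were not tied to any binding.

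**Figure D1:**
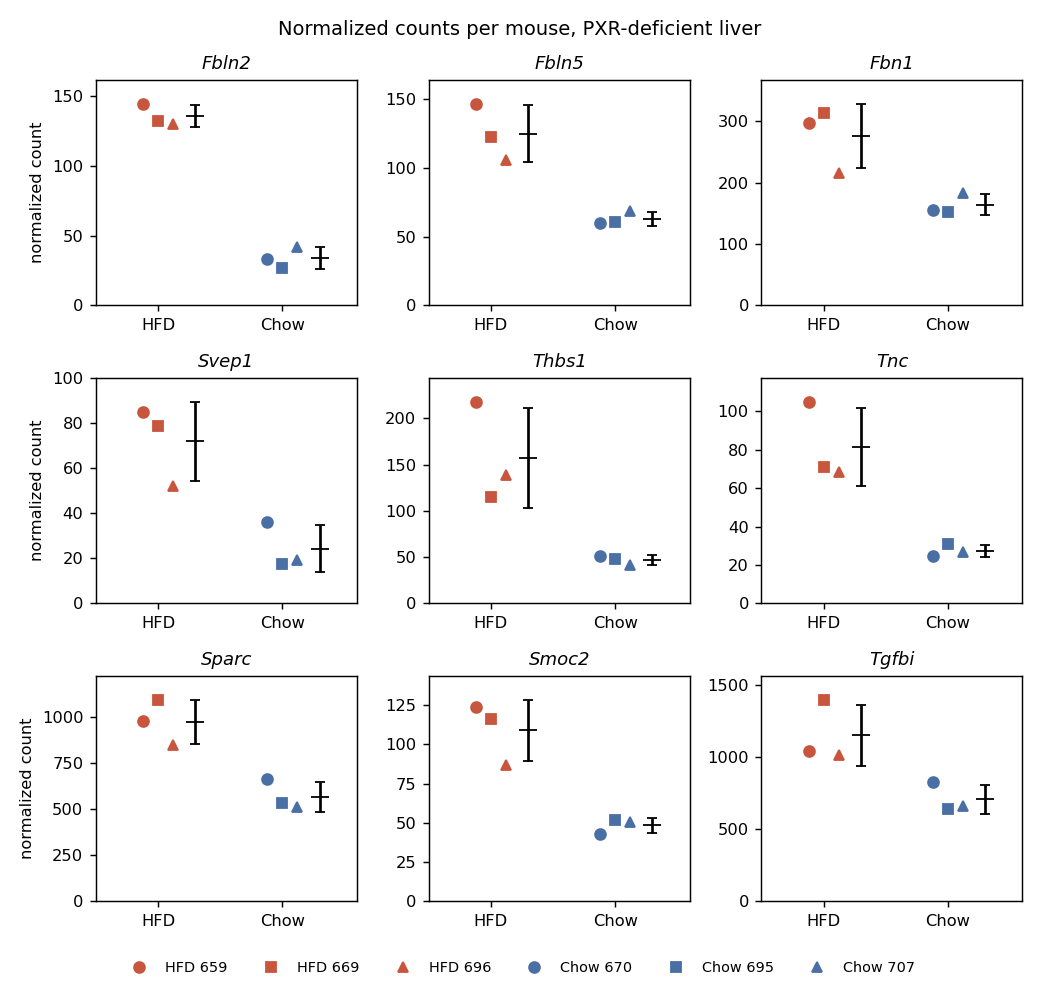
Normalized counts of the 9 glycoprotein genes per mouse. The y axes start at 0, each symbol is 1 mouse, the bar beside each group is the mean with its SD, and HFD mice are left of chow mice. In every panel the 3 HFD mice lie above the 3 chow mice, with the widest gap for Fbln2 (lowest HFD mouse 3.08 times the highest chow mouse) and the narrowest for Fbn1 (1.18 times).

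Among the elastic fibre genes, Fbln2 stood highest on HFD relative to chow. Fibulin 2 binds fibrillin microfibrils and basement membrane proteins, and its gene lies on chromosome 6 from 91212455 to 91272540 (GRCm38, plus strand). Normalized counts were 145, 132 and 130.1 in HFD mice 659, 669 and 696, against 33.2, 26.9 and 42.2 in chow mice 670, 695 and 707. Values of the other genes follow in the same order of mice. The groups were far apart, and the HFD mice were close to each other. Fbln2 averaged 136 ± 7.77 in HFD mice and 34.1 ± 7.72 in chow mice (SD, n = 3 each), 3.98-fold higher. The spread of the HFD mice, 5.73% of their mean, was below the 8.38% that counting error alone would give. In the authors' deposited table its log2 fold change was 1.61 (SE 0.23) with an adjusted p of 1.05e-09, the 12th largest fold of the 215.

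Fbln5, the elastin-binding fibulin (chromosome 12 from 101746565 to 101819055, minus strand), differed less. HFD mice had 146, 123 and 106 normalized counts and chow mice 59.6, 60.5 and 68.8. All HFD mice lay above all chow mice, and the chow mice were nearly level. The group means were 125 ± 20.5 in HFD mice and 63.0 ± 5.07 in chow mice (SD, n = 3 each), 1.98-fold. Its deposited log2 fold change was 0.82 (SE 0.22, adjusted p = 0.0137 in the authors' deposited table). The 2 fibulin genes therefore moved by different amounts, which can be read without any scaling from the ratio of their raw counts within a mouse. Fbln2 over Fbln5 was 0.988, 1.08 and 1.23 in HFD mice 659, 669 and 696, against 0.557, 0.444 and 0.614 in the chow mice, so the ratio was 2.04-fold higher on HFD and its groups did not overlap. These ratios, and the others below, were chosen after the values were seen.

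Fbn1 encodes fibrillin 1, the backbone of microfibrils and the longest gene of the set (chromosome 2 from 125300594 to 125507993, minus strand). HFD mice had 297, 314 and 216 normalized counts and chow mice 156, 152 and 183. Mouse 696 was the lowest of the HFD group and only 1.18 times the highest chow mouse. Fbn1 averaged 276 ± 52.4 in HFD mice and 164 ± 17.2 in chow mice (SD, n = 3 each), 1.68-fold. With a deposited log2 fold change of 0.66 (SE 0.19) and an adjusted p of 0.0401 in the authors' deposited table, it was the member nearest the p limit of the rows. The within-mouse ratio of Fbln5 to Fbn1 averaged 0.457 ± 0.058 in HFD mice and 0.385 ± 0.012 in chow mice (SD, n = 3 each). The groups overlapped only through HFD mouse 669, at 0.390 beside 0.375 to 0.399 in chow mice. With 3 mice a group, overlap of such a ratio is not read as equal movement. Part of the exon sequence of Fbn1, 2442 bases, is shared with Gm9913 on the opposite strand. Whether counting used strand is not given in the sources used here, so reads of the 2 genes cannot be told apart there.

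Svep1 encodes a very large multidomain matrix protein with sushi and EGF repeats (chromosome 4 from 58042442 to 58206859, minus strand). It had 84.9, 78.6 and 51.9 normalized counts in HFD mice, against 36.2, 17.3 and 19.3 in chow mice. Chow mouse 670 lay well above the other chow mice and nearest to the HFD group. The means were 71.8 ± 17.5 in HFD mice and 24.2 ± 10.4 in chow mice (SD, n = 3 each), 2.96-fold. Raw counts were few: 226 over the HFD group (95% exact Poisson interval 197 to 257, counting error only) and 71 over the chow group (55.5 to 89.6). The deposited log2 fold change was 1.05 (SE 0.27, adjusted p = 0.0104 in the authors' deposited table), which is 0.52 below the log2 ratio of group means. Svep1 shares 2244 exon bases with the long noncoding gene Gm26889 on the opposite strand.

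Of the matricellular genes, Thbs1 and Tnc had the largest folds of HFD over chow. Thbs1 (chromosome 2 from 118111876 to 118127133, plus strand) had 218, 115 and 139 normalized counts in HFD mice, against 51.8, 48.0 and 41.0 in chow mice. HFD mouse 659 was far above the other HFD mice, while the chow mice differed by less than counting error would give (11.6% of the mean, with 14.9% from counting). Thbs1 averaged 157 ± 53.7 in HFD mice and 46.9 ± 5.45 in chow mice (SD, n = 3 each), 3.35-fold. Without HFD mouse 659 the fold was 2.71. The deposited log2 fold change was 1.34 (SE 0.24, adjusted p = 1.15e-05 in the authors' deposited table).

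Tnc encodes tenascin C, a hexameric glycoprotein that is scarce in most resting adult tissues (chromosome 4 from 63959785 to 64047015, minus strand). It had 105, 71.0 and 68.6 normalized counts in HFD mice, against 24.4, 30.7 and 26.6 in chow mice. The lowest HFD mouse was 2.23 times the highest chow mouse. Tnc averaged 81.5 ± 20.3 in HFD mice and 27.2 ± 3.20 in chow mice (SD, n = 3 each), 2.99-fold. Its raw counts summed to 260 over the HFD mice (95% exact Poisson interval 229 to 294) and 79 over the chow mice (62.5 to 98.5). Its deposited log2 fold change was 1.17 (SE 0.25, adjusted p = 0.000769 in the authors' deposited table). The ratio of Thbs1 to Tnc within a mouse averaged 1.91 ± 0.25 in HFD mice and 1.74 ± 0.327 in chow mice (SD, n = 3 each), and the groups overlapped. Thbs1 shares 208 exon bases with Gm29233 and Tnc 176 with 8030451A03Rik, both on the opposite strand.

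Sparc and Tgfbi had the most counts of the set and, with Fbn1, differed least. Sparc encodes a collagen- and calcium-binding protein also called osteonectin (chromosome 11 from 55394500 to 55423183, minus strand). It had 975.1, 1089 and 848 normalized counts in HFD mice, against 660.5, 531 and 512 in chow mice. The groups did not overlap, and chow mouse 670 was the highest of its group. The means were 971 ± 121 in HFD mice and 568 ± 80.9 in chow mice (SD, n = 3 each), 1.71-fold. The deposited log2 fold change was 0.71 (SE 0.16, adjusted p = 0.00237 in the authors' deposited table).

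Tgfbi encodes a TGF-beta-induced protein that binds collagens and integrins (chromosome 13 from 56609523 to 56639562, plus strand). HFD mice had 1041, 1396 and 1016 normalized counts and chow mice 825, 642 and 660.2. Mouse 669 was the highest of the HFD group, and the lowest HFD mouse was 1.23 times the highest chow mouse. Tgfbi averaged 1151 ± 213 in HFD mice and 709 ± 101 in chow mice (SD, n = 3 each), 1.62-fold. Its deposited log2 fold change, 0.63 (SE 0.17, adjusted p = 0.0218 in the authors' deposited table), was the nearest of the set to the 0.6 limit of the rows. Counting error would give the HFD mice a spread of 2.90% of the mean, where 18.5% was seen. The ratio of Sparc to Tgfbi hardly moved, at 0.851 ± 0.079 in HFD mice and 0.801 ± 0.026 in chow mice (SD, n = 3 each), with overlapping groups.

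Smoc2, a relative of Sparc that shares its calcium-binding domains, is on chromosome 17 from 14279506 to 14404790 (plus strand). HFD mice had 124, 116 and 87.1 normalized counts and chow mice 43.0, 51.8 and 50.7. Mouse 696 was again the lowest of the HFD group, at 1.68 times the highest chow mouse. Smoc2 averaged 109 ± 19.4 in HFD mice and 48.5 ± 4.81 in chow mice (SD, n = 3 each), 2.25-fold, with a deposited log2 fold change of 0.94 (SE 0.23, adjusted p = 0.00509 in the authors' deposited table). Within mice, Smoc2 over Sparc was 0.127, 0.107 and 0.103 in the HFD group and 0.0651, 0.0976 and 0.0991 in the chow group. The groups came close without overlapping, and chow mouse 670 was the lowest of the 6.

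**Figure D2:**
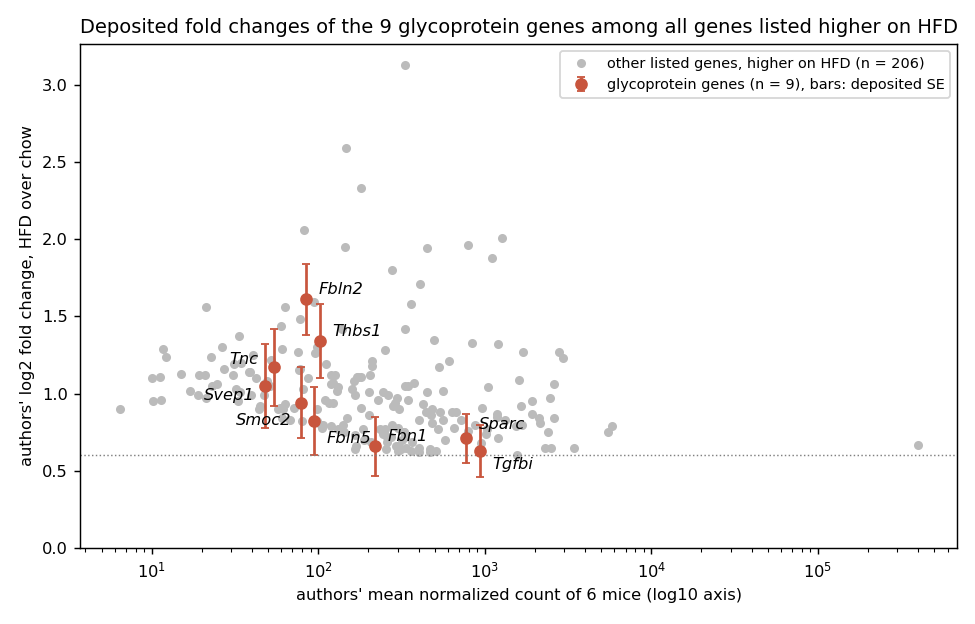
Deposited log2 fold change of HFD over chow against the authors' mean normalized count (log10 axis) for all 215 genes listed as higher. Red points are the 9 glycoprotein genes with the deposited SE, grey points are the other 206 genes, and the dotted line is the 0.6 limit of the rows. Fbln2 is highest of the 9 at 1.61, followed by Thbs1 at 1.34, and Sparc and Tgfbi are at 0.71 and 0.63 near the lower edge.

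The size of the difference varied inside the set. Fbln2, Thbs1, Tnc, Svep1 and Smoc2 were more than 2-fold higher, and the 4 genes under 2-fold were Fbln5, Sparc, Fbn1 and Tgfbi, of which Tgfbi, Sparc and Fbn1 had the most counts. Among all genes listed as higher, 66.5% were at least 2-fold. The rows were selected by p, which a gene with few counts passes only with a large fold, so no relation of fold to abundance is read from them. By the authors' deposited table, a total of 4 of the 9 had a log2 fold change of at least 1, as had 42.8% of the genes listed as higher. All 9 genes had HFD mice wholly above chow mice, and so had 99.5% of the genes listed as higher (63.7% of all rows), so nothing is read from this count. In all 9 the deposited fold change was smaller than the ratio of means. The gap was 0.06 to 0.09 (log2) for Sparc, Tgfbi and Fbn1, 0.17 for Fbln5, 0.23 for Smoc2 and 0.38 to 0.52 for Fbln2, Thbs1, Tnc and Svep1. Summed over the 9 genes, normalized counts were 3136, 3436 and 2662 in HFD mice, against 1889.6, 1560.0 and 1604 in chow mice. Fbln2 made up 3.85% to 4.89% of the raw counts of the set in HFD mice and 1.72% to 2.63% in chow mice, while Sparc made up 31.1% to 31.8% in HFD mice and 31.9% to 35.0% in chow mice.

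How many of the authors' calls remained differed between refits. These saw only the listed rows, so the set of genes fitted differs from the authors', and the test may differ too. With the same size factors, the edgeR and DESeq2 refits below differ in the test on nearly the same rows. The same counts chose the rows, so refits of them are a limit and no new test. edgeR's quasi-likelihood test, scaled by the size factors behind the authors' means and adjusted for every gene tested, called 0 of the 9 genes (adjusted p 0.0653 for Fbln2 to 0.621 for Tgfbi). It called 8 of the 331 genes fitted higher, which is 0.0320% of all genes tested. All 9 were under 0.05 unadjusted. DESeq2, refitted to the listed genes and adjusted in the same way, called 3 of the 9, Fbln2, Thbs1 and Tnc. It called 105 of the 336 genes fitted higher, which is 0.420% of all genes tested. Adjusted over the listed genes alone, edgeR called all 9, as it did 64.0% of the listed genes. TMM scaling over the listed genes, which moves the median log2 fold change of all rows by -0.63, left all 9 folds above 1, but the mice of Fbn1, Sparc, Tgfbi and Svep1 then overlapped between groups. Overlap with TMM was not counted over all rows, so nothing is read from it.

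**Figure D3:**
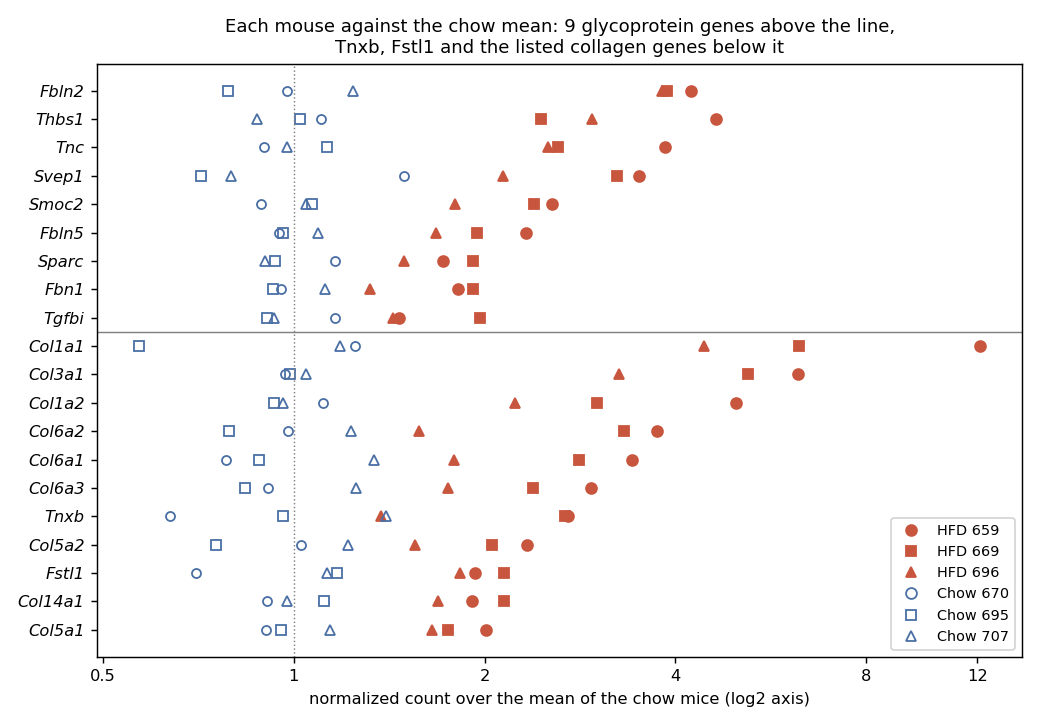
Normalized count of each mouse over the mean of the chow mice (log2 axis) for the 9 glycoprotein genes, above the line, and for Tnxb, Fstl1 and the 9 listed collagen genes, below it. Filled red symbols are HFD mice, open blue symbols chow mice, and 1 is the chow mean. HFD mouse 696 (triangles) is the lowest HFD mouse in 8 of the 9 genes and in all 9 listed collagens, and Tnxb is the gene whose groups overlap.

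The order of the HFD mice was only partly alike over the genes of the set. Mouse 659 was the highest HFD mouse for Fbln2, Thbs1, Tnc, Svep1, Smoc2 and Fbln5, and mouse 669 for Sparc, Fbn1 and Tgfbi. Mouse 696 was the lowest for 8 of 9 genes, with Thbs1 as the exception. For Fbln2 (130.1 against 132) and Tnc (68.6 against 71.0) it was only just below mouse 669. Over all 215 genes listed as higher, 659 was the highest in 44.7% and 696 the lowest in 35.3%. Relative to the chow mean, the median of the 9 genes was 2.55-fold in mouse 659, 2.40-fold in mouse 669 and 1.79-fold in mouse 696. For all genes listed as higher the same medians were 2.34, 2.32 and 2.14. Of the 9 listed collagen genes, 659 was the highest for 8 and 696 the lowest for 9. What sets these mice apart was not tested.

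**Figure D4:**
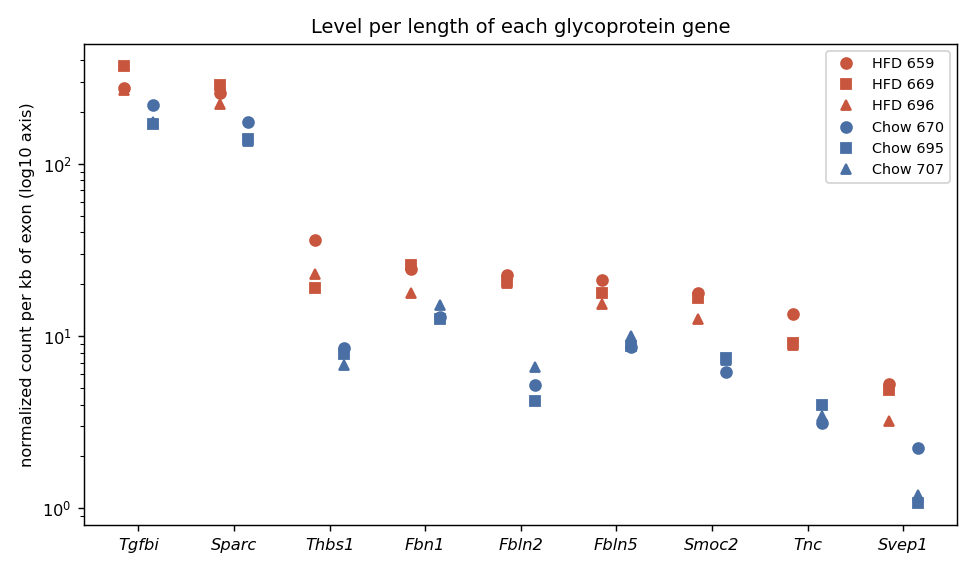
Normalized count per kilobase of exon (log10 axis) for each gene, ordered by the HFD mean. Each symbol is 1 mouse, HFD mice in red left of chow mice in blue. Tgfbi and Sparc lie far above the other 7 genes in both groups, and Svep1 is the lowest in both.

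Levels of different genes were compared per kilobase of annotated exon. Tgfbi averaged 305 ± 56.4 normalized counts per kilobase in HFD mice and 188 ± 26.7 in chow mice, and Sparc 256 ± 31.9 in HFD mice and 149.9 ± 21.4 in chow mice (SD, n = 3 each). The mice of these 2 genes overlapped in both groups, and all of them lay above every other gene of the set. Thbs1, Fbn1, Fbln2, Fbln5 and Smoc2 followed on HFD, at 25.9 ± 8.84, 22.8 ± 4.32, 21.3 ± 1.22, 18.1 ± 2.97 and 15.7 ± 2.79 per kilobase (SD, n = 3 each), and each overlapped its neighbour. Tnc came next, at 10.5 ± 2.61 per kilobase in HFD mice and 3.50 ± 0.412 in chow mice (SD, n = 3 each), and overlapped Smoc2 in HFD mice. Svep1 was lowest, at 4.46 ± 1.09 in HFD mice and 1.504 ± 0.643 in chow mice (SD, n = 3 each), below every mouse of Tnc in its own group. The order in chow mice differed in the middle: Fbn1 had place 3 at 13.5 ± 1.41 and Fbln2 place 7 at 5.36 ± 1.21 per kilobase (SD, n = 3 each), with Fbln5, Thbs1 and Smoc2 between them. In chow mice Thbs1 overlapped Smoc2 and Smoc2 overlapped Fbln2, and each other gene below Sparc lay wholly above the next. From highest to lowest gene the means spanned 68.5-fold in HFD mice and 125-fold in chow mice.

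**Figure D5:**
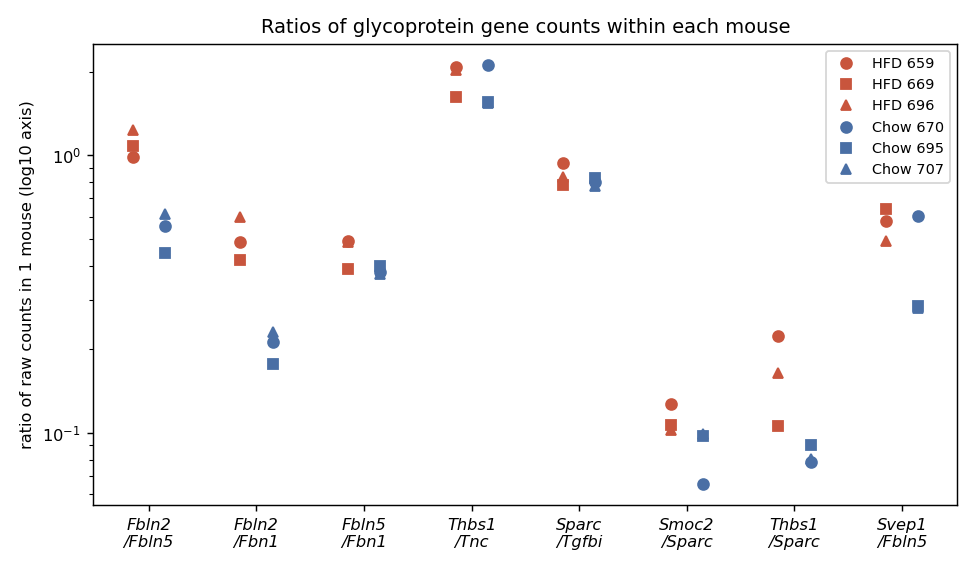
Ratio of the raw counts of 2 genes in the same mouse (log10 axis), which needs no scaling between libraries. Each symbol is 1 mouse, HFD mice in red left of chow mice in blue. Fbln2 over Fbln5, Fbln2 over Fbn1, Thbs1 over Sparc and, narrowly, Smoc2 over Sparc are higher in HFD mice with no overlap. Thbs1 over Tnc, Sparc over Tgfbi, Fbln5 over Fbn1 and Svep1 over Fbln5 overlap.

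The ratios within mice set how far 1 gene moved beside another. Fbln2 over Fbn1 was 0.486, 0.421 and 0.602 in HFD mice, against 0.212, 0.177 and 0.230 in chow mice, 2.43-fold higher on HFD. Thbs1 over Sparc was 0.223, 0.106 and 0.164 in HFD mice, against 0.0784, 0.0904 and 0.0802 in chow mice, 1.98-fold higher. Neither ratio overlapped between the groups. Svep1 over Fbln5 was 0.580, 0.640 and 0.492 in HFD mice, against 0.607, 0.286 and 0.281 in chow mice. Its mean was 1.46-fold higher on HFD, but the groups overlapped through chow mouse 670. Measured as the root mean square difference of log2 profiles over the 6 mice, each centred on its chow mean, the closest pair was Sparc and Tgfbi at 0.10, and Thbs1 and Tnc were 0.21 apart. The most distant pair was Fbln2 and Tgfbi at 0.96. Fbn1 and Thbs1 lie 7.17 Mb apart on chromosome 2, and Svep1 and Tnc 5.75 Mb apart on chromosome 4.

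Among all other listed genes, those with a profile most like the mean of the 9 were Ccdc80, Col6a3, Slc5a6, Mmp2 and Mgmt, at 0.17 to 0.20 on the same log2 measure. Ccdc80 encodes a matrix-associated protein and averaged 616 ± 87.6 normalized counts in HFD mice and 278 ± 62.3 in chow mice (SD, n = 3 each). Col6a3 encodes a chain of type VI collagen, which forms its own microfibrils, and Mmp2 a gelatinase that cuts matrix proteins. Slc5a6 encodes a vitamin transporter and Mgmt a DNA repair enzyme. With a pseudocount of 5 in place of 0.5, 3 of these 5 were kept. Taken singly, Fbln5 was most like Col5a1 (0.11) and Svep1 most like Col1a2 (0.32). Sparc was most like the interferon-induced gene Gbp7 (0.06), Smoc2 most like the protocadherin gene Pcdh7 (0.09) and Fbn1 most like the interferon-induced gene Ifit1 (0.11). The nearest genes were the signalling adaptor gene Stap1 for Fbln2 (0.19), Limch1 for Thbs1 (0.17) and the predicted gene Gm43072 for Tnc (0.17). Tgfbi was most like the sphingosine-1-phosphate transporter gene Spns2 (0.12). All these rows were selected on the same contrast, and profiles centred on the chow mean come close where the diet folds are alike. Sparc and Gbp7, for example, were 1.71-fold and 1.73-fold higher on HFD. Likeness is therefore not read as shared regulation.

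Other genes of the same families are read beside the share of all tested genes that was listed, 1.34% in either direction, at which a list of this length would often hold no listed gene. Of 24 names of elastic fibre and microfibril genes, such as elastin, the latent TGF-beta binding proteins and lysyl oxidase, 0 were listed, and 0 of 28 names of other matrix glycoproteins such as fibronectin and the laminins. Among 28 names of other matricellular genes, older symbols included, Fstl1 and Tnxb were listed as higher on HFD. Fstl1, a follistatin-like relative of Sparc, averaged 137 ± 11.3 in HFD mice and 69.6 ± 18.1 in chow mice (SD, n = 3 each), 1.97-fold. Tnxb, a tenascin, averaged 670 ± 226 in HFD mice and 297 ± 114 in chow mice (SD, n = 3 each), but HFD mouse 696, at 409, lay below chow mouse 707, at 416. A name that is not among the rows has no value here, and nothing is said of its change.

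Of 24 names of receptors for these proteins, 1 was listed as higher and 1 as lower. Cd36, a fatty acid transporter that also binds thrombospondin 1, averaged 4171 ± 1018 normalized counts in HFD mice and 1438 ± 522 in chow mice (SD, n = 3 each), 2.90-fold higher. Itga5, a subunit of the fibronectin receptor, fell: HFD mice had 228, 168 and 171 normalized counts and chow mice 369, 305 and 418, with a deposited log2 fold change of -0.83 (adjusted p = 0.00196 in the authors' deposited table). Of 20 names of TGF-beta pathway genes, the activin subunit genes Inhbe and Inhba were listed, Inhbe 2.31-fold higher and Inhba lower with a deposited log2 fold change of -1.02. Of 16 collagen names 9 were listed, all higher, with a median fold of 2.67 (range 1.80 to 7.61), beside 2.25 for the 9 glycoprotein genes. These were Col1a1, Col1a2, Col3a1, Col5a1, Col5a2, Col6a1, Col6a2, Col6a3 and Col14a1. Col1a1, a chain of type I collagen, had the widest spread, with 408, 211 and 149 normalized counts in HFD mice, against 42.0, 19.2 and 39.8 in chow mice.

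Markers of cell types that could carry these transcripts were looked up in the same rows. Of the names searched, 0 of 14 stellate cell, 0 of 10 portal fibroblast, 0 of 5 vascular smooth muscle, 0 of 5 mesothelial, 0 of 7 endothelial, 0 of 5 cholangiocyte, 0 of 4 platelet and 0 of 7 hepatocyte markers were listed for diet. With 1.34% of tested genes listed, counts of 0 in lists this short are read neither as presence nor as absence of a cell type. These names give no check of the tissue label. Macrophage markers Itgax and Mmp12, 2 of 10, were higher, with a summed level of 71.2 to 119 normalized counts in HFD mice, against 12.5 to 25.3 in chow mice. Mouse 659 was the highest HFD mouse for Mmp12 and mouse 696 for Itgax. Of 5 T cell markers, Themis was listed, with 372, 306 and 315 in HFD mice, against 58.6, 24.96 and 13.3 in chow mice. The part of these cell types in the glycoprotein values was not tested.

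The comparison of PCN with vehicle concerns a PXR ligand in HFD-fed mice that are deficient in its receptor. None of the 9 genes (0 of 9) was among its 33 rows, where 0.130% of about 25300 tested genes were listed. The rows therefore hold no value of these genes in PCN-treated or vehicle-treated mice, and their levels there are not analysed here.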

How the data were processed

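RNA libraries of 12 livers, 3 per group by the labels, are covered by 2 tables. The deposited values are raw counts per gene and mouse, per the file headers, beside the authors' mean, log2 fold change, SE, p and adjusted p. Per the submitters' processing notes HISAT2, HTSeq, DESeq2 and GRCm38 (mm10) were used; their roles, versions and any use of strand were not given in the sources used. The rows are genes selected by the authors. The number of genes tested was worked out from the relation of p to adjusted p.

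Normalized counts are counts divided by size factors solved from the authors' mean column (largest gap 0.0051 counts, 0.829 to 1.14 in the diet table). Folds are ratios of group means, HFD over chow. No row names no gene. The authors' call (adjusted p under 0.05) is counted and not tested anew. edgeR 4.0.16 and DESeq2 1.42.0 (R 4.3.3) were refitted to the listed rows as limits, with p adjusted for about 24990 genes as if unlisted genes had larger p; the edgeR script was tested on simulated data. The log2 profiles used a pseudocount of 0.5. Exon lengths and overlaps are from GENCODE M21, whose coordinates equal those of the files for all 9 genes, with 1-based starts. Promoters are from RefSeq. Planned protein features were not computed, since no protein sequences were used here. P-values cover the spread between these mice. Intervals cover counting error only. Genes named were all 9, listed members of the fixed lists and the nearest profiles; 1 result of the matricellular list is not reported here. The genes and lists were chosen with earlier results of these data known.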

Additional observations from a re-analysis of the deposited data

How the results depend on the processing

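Of the 9 genes called higher by the authors, 5 remained at an adjusted p under 0.01 (0.520% of genes tested), 4 at a log2 fold change of at least 1 and 2 with Bonferroni (0.228%). Of the 215 genes listed as higher, from which the 9 were drawn, 130, 92 and 57 passed these limits in the same order. By edgeR, scaled as in the authors' means and adjusted for every gene tested, the count was 0. That fit called 8 of the 331 genes fitted higher. The count was also 0 with no filter on low counts (8 of 336 genes fitted) and without each mouse in turn (0 to 0). Fits without 1 mouse called 1 to 7 of the 332 to 336 genes fitted, so nothing is read from a count of 0. All 9 were under 0.05 unadjusted in these fits, and 9 were called when edgeR was adjusted over the listed genes alone (64.0% of the genes fitted), a setting added after seeing the data. DESeq2 called 3. edgeR with TMM over the listed genes called 3 (20.3% of the genes fitted). TMM centres the folds on genes selected for change and moved the median log2 fold change of all rows by -0.63. Relative to that centre the median fold of the 9 genes was 1.44 in place of 2.25, with 5 of 9 free of overlap: Fbn1, Sparc, Tgfbi and Svep1 overlapped. The share of all rows free of overlap with TMM was not computed, so nothing is read from this count. The folds with TMM were 2.55 for Fbln2, 1.27 for Fbln5, 1.08 for Fbn1, 2.13 for Thbs1, 1.91 for Tnc, 1.10 for Sparc, 1.04 for Tgfbi, 1.44 for Smoc2 and 1.89 for Svep1. Of 81 folds recomputed under 9 alternatives per gene, 81 stayed above 1 and 73 within 1 SD. All 8 folds that moved further did so with TMM, and most other alternatives only left out 1 mouse. The SD was carried from the spread of the mice to the ratio and is wide, at 1.46 on a fold of 2.96 for Svep1. Leaving out 1 mouse gave medians of 2.10 to 2.47. With the longest transcript as length, 4 of 9 genes kept their place per kilobase in HFD mice and 5 in chow mice, and Smoc2 moved most. With a pseudocount of 5, 3 of the 5 nearest profiles were kept. No paired analysis was possible because each mouse has its own number and groups share none. Total depth is unknown, and counts of under 100 over a group (Fbln2, Tnc and Svep1 in chow mice) limit the precision of these folds.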
